A study of Saccharomyces cerevisiae with 6 samples.

Results

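The genes described here are aerobic and hypoxic isoforms of 4 proteins of Saccharomyces cerevisiae and the repressor gene ROX1, 10 genes of the 5656 that had a probe set of their own on the array. They were chosen by name, and each was paired with 1 probe set. No member was found on a probe set paired with several genes. The groups were 3 arrays of air-liquid interface biofilm cells ("floaters") and 3 arrays of the settled cells under the film ("sinkers", here the bottom layer). Both came from strain 3238-32, labelled MATa leu2∆1 lys2-801 ura3-52, which had been grown for 24 h at 30°C until its sugar was used up. Washed cells stood without shaking for 48 h at 27°C in a minimal medium whose carbon source was 4% ethanol, and both layers were then collected. The labels mention triplicate beakers without saying which array came from which, so the p-values cover the variation among these arrays, which may be technical. All samples come from 1 strain, and both layers held clumped cells.

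Yeast carries several proteins of respiration and translation as a gene for air and a gene for low oxygen. In air, heme made with oxygen lets the activator Hap1 and the Hap2/3/4/5 complex switch on genes such as CYC1, COX5A and ROX1, and the Rox1 protein then represses the hypoxic partners. When oxygen and heme run short Rox1 is lost and the hypoxic genes are released. Some of them answer to other signals as well: CYC7 is also known to rise under stress and in stationary phase, and Hap4 raises respiratory genes on carbon sources that are not fermented, such as ethanol.

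Array values were MAS5 signals, linear brightness units with nearly equal trimmed means on the 6 arrays. The median signal ranged from 128 to 151 over the 6 arrays. One array stood apart: on bottom layer replicate 3 the 9 spiked bacterial controls had a geometric mean of 2020, against 397 to 712 on the other arrays. Its ACT1 3' to 5' signal ratio, a sign of RNA or labelling quality, was 3.84 against 1.54 to 2.36, and its brightest unspiked control reached 44.8 against 16.3 to 21.9. The 18S ribosomal RNA controls averaged 893 to 1217 on biofilm arrays and 3842 to 5759 on bottom layer arrays. The part of these differences in the results below was not tested, and values without bottom layer replicate 3 stand beside some of the results. Mating-type markers went against the label: of 6 genes specific to MATa cells 5 never exceeded 113 and MFA1 reached 123 at most, while of 4 alpha-specific genes STE3 lay between 1056 and 2210, MF(ALPHA)1 between 1087 and 3540, SAG1 between 297 and 2121 and MF(ALPHA)2 between 144 and 300. Of the marker genes of the strain, URA3 lay between 15.1 and 32.5, LYS2 between 324 and 1391 and LEU2 between 4962 and 11805. Where these probe sets lie relative to the mutations is not given in the sources used here.

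Both partners of the cytochrome c, cytochrome c oxidase subunit V and eIF5A pairs had lower signals in the biofilm. Among the members tested CYC7, a hypoxic gene, showed the largest difference, 10.1-fold, while its aerobic partner CYC1 was 1.97-fold lower. ANB1, the hypoxic eIF5A gene, was 3.07-fold and its partner HYP2 1.66-fold lower, a call that several settings removed. ROX1, whose product represses hypoxic genes in air, was also lower, 3.71-fold, with dim signals in the biofilm. Of the mitochondrial ADP/ATP carrier genes, AAC1 and PET9 did not pass the test, though PET9 was close to the threshold and passed under 7 of 16 other settings. The hypoxic AAC3 was dim, between 24.0 and 51.5, and lay below the brightest unspiked control on 1 array. In bulk RNA, a smaller share of cells that express a gene and less of its RNA per cell cannot be told apart.

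Of the 10 members, 8 passed the filter on dim genes and 2, COX5B and AAC3, did not. By limma, 6 of the 8 were lower in the biofilm at an adjusted p below 0.05 and none was higher, against 24.4% lower and 38.0% higher among all 4242 genes tested, and 62.5% in either direction. At an unadjusted p below 0.05 the counts were 7 lower and 0 higher. Their median log2 fold change, biofilm over bottom layer, was -0.92, against 0.17 over all genes tested. ROX1 passed the filter through its level in the bottom layer alone, so its place among the 8 is not independent of its difference. All 3 biofilm arrays lay below all 3 bottom layer arrays for 7 of the 10 members, which include COX5B. For all genes tested, which do not include COX5B and AAC3, that share was 26.7%. Without bottom layer replicate 3 the count of lower members was also 6, with PET9 in and HYP2 out.

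**Figure D1:**
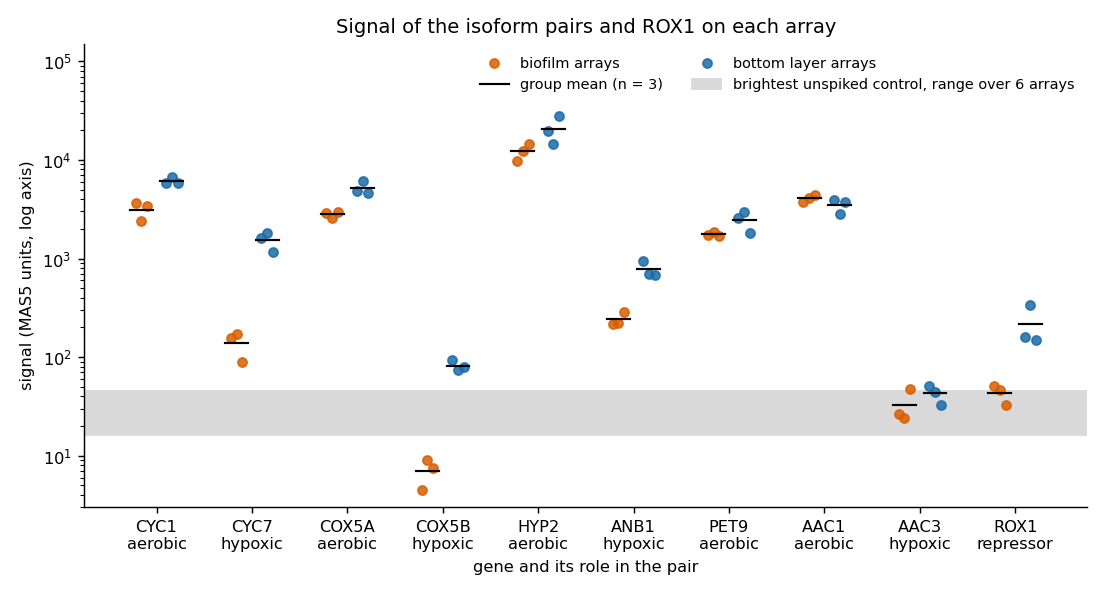
Signal of each member on each of the 6 arrays (log axis, MAS5 units), with the group mean as a line. The grey band spans the brightest unspiked control of the 6 arrays, 16.3 to 44.8. COX5B in the biofilm lies below it, and AAC3 lies in or near it in both groups. The orange biofilm points of CYC7, ANB1 and ROX1 lie clearly under the blue bottom layer points, and those of ROX1, 32.7 to 51.5, lie in or near the band.

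Cytochrome c carries electrons from complex III to cytochrome c oxidase, and CYC1 (YJR048W) encodes its main form in air. CYC1 read 3618, 2424 and 3382 in the biofilm and 5897, 6678 and 5820 in the bottom layer. Every biofilm array was below every bottom layer array. The means were 3141 ± 632 and 6132 ± 474 (SD, n = 3 in each group), a difference of -0.98 ± 0.19 on the log2 scale (SE, limma with Benjamini-Hochberg adjustment over all genes tested, adjusted p = 0.000964).

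CYC7 (YEL039C), the other cytochrome c, read 157, 170 and 89.9 in the biofilm and 1626, 1829 and 1156 in the bottom layer. Its lowest bottom layer array was several times its highest biofilm array. The means were 139 ± 43.1 and 1537 ± 345, with a log2 fold change of -3.34 ± 0.25 (SE; limma adjusted p = 2.22e-06). It was the 32nd largest fall among the 4242 genes tested, whereas CYC1 ranked 565th. Without bottom layer replicate 3 the log2 fold change was -3.53 for CYC7 and -1.02 for CYC1.

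COX5A (YNL052W) and COX5B (YIL111W) encode alternative forms of subunit V of cytochrome c oxidase, and the hypoxic form is known to give the enzyme a faster turnover. COX5A read 2905, 2587 and 2937 in the biofilm and 4813, 6108 and 4602 in the bottom layer, without overlap. Its means of 2810 ± 193 and 5174 ± 815 gave a log2 fold change of -0.87 ± 0.17 (SE; limma adjusted p = 0.000999).

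COX5B was dim. It read 4.45, 9.02 and 7.51 in the biofilm, below the brightest unspiked control on all 3 arrays, and 93.0, 74.4 and 79.2 in the bottom layer, above it on all 3. With that control level in place of the biofilm signal, COX5B was at least 2.85-fold lower in the biofilm, on the signal + 16 scale used for all folds here. The measured means were 6.99 ± 2.33 and 82.2 ± 9.69. A fit without the filter on dim genes, which tests it, gave an adjusted p of 8.84e-06 (limma) and a log2 fold change of -2.10, which depends on the pseudocount and was -1.04 with 64 and -3.42 with 1.

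HYP2 (YEL034W) and ANB1 (YJR047C) encode the translation factor eIF5A, which helps ribosomes through difficult peptide bonds and carries the modified amino acid hypusine. HYP2, the form made in air, read 9680, 12447 and 14553 in the biofilm and 19642, 14583 and 27810 in the bottom layer. The groups all but touched, at 14553 and 14583. Means were 12227 ± 2444 and 20678 ± 6674, a log2 fold change of -0.73 ± 0.27 (SE; limma adjusted p = 0.0384).

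The HYP2 call was not firm. It was lost without bottom layer replicate 3 (log2 fold change -0.49, adjusted p = 0.0708), without bottom layer replicate 1 (-0.74, adjusted p = 0.103) and without biofilm replicate 1 (-0.57, adjusted p = 0.163) or 2 (-0.75, adjusted p = 0.0868), all by limma. It was also lost when the ACT1 3' to 5' ratio entered the fit (log2 fold change -0.29, adjusted p = 0.212), and, at the same log2 fold change of -0.73, with the dimmest 50% of genes left out (adjusted p = 0.0541) and with a replicate block (adjusted p = 0.0502). Quantile normalization kept the call at a log2 fold change of -0.33 (adjusted p = 0.0127). HYP2 was among the 9 brightest genes on every array and the brightest on bottom layer replicate 1, and whether its signal was saturated was not tested.

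ANB1, the form made at low oxygen, read 219, 220 and 285 in the biofilm and 937, 701 and 688 in the bottom layer, without overlap. The means were 241 ± 37.7 and 775 ± 140, with a log2 fold change of -1.62 ± 0.18 (SE; limma adjusted p = 3.14e-05), 3.07-fold. HYP2 and ANB1 are close in sequence, and cross-hybridisation between their probe sets was not tested. The ANB1 signal was 1.76% to 2.26% of the HYP2 signal on the biofilm arrays, and 4.77%, 4.81% and 2.47% of it on bottom layer replicates 1, 2 and 3. The share on replicate 3 was thus close to those in the biofilm.

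The ADP/ATP carriers exchange the nucleotides across the inner mitochondrial membrane. PET9 (YBL030C, also called AAC2) encodes the main carrier in respiring cells, AAC1 (YMR056C) a minor one and AAC3 (YBR085W) the hypoxic one. PET9 read 1737, 1841 and 1691 in the biofilm and 2605, 2957 and 1795 in the bottom layer, where replicate 3 lay within the biofilm range. The means were 1756 ± 76.6 and 2453 ± 596, with a log2 fold change of -0.45 (95% confidence interval -0.87 to -0.03, limma adjusted p = 0.0589). Without bottom layer replicate 3 it was -0.66 and passed (adjusted p = 0.00327), and it passed as well under 6 other settings given in the closing section.

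AAC1 was the single member with a higher mean in the biofilm. It read 3743, 4137 and 4449 there and 3880, 2849 and 3780 in the bottom layer, with overlapping groups. The means of 4110 ± 354 and 3503 ± 569 gave a log2 fold change of 0.24 (95% confidence interval -0.14 to 0.62, limma adjusted p = 0.247). With array medians set equal the difference was 0.03.

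AAC3 read 26.3, 24.0 and 47.9 in the biofilm and 51.5, 44.8 and 32.7 in the bottom layer, with overlapping groups. The last value lay below the brightest unspiked control of its array. The fit without the filter on dim genes gave a log2 fold change of -0.30 (95% confidence interval -0.81 to 0.22, limma adjusted p = 0.296), and quantile normalization turned its sign, to 0.10.

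ROX1 (YPR065W) encodes the DNA-binding repressor of hypoxic genes and is known to be switched on by heme and to hold back its own gene. It read 51.5, 46.6 and 32.7 in the biofilm and 161, 341 and 149 in the bottom layer, without overlap. All 6 values lay above the brightest unspiked control of their arrays. The means were 43.6 ± 9.76 and 217 ± 107, with a log2 fold change of -1.89 ± 0.28 (SE; limma adjusted p = 0.000187). The size depends on the pseudocount, with -2.21 at 1 and -1.33 at 64.

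**Figure D2:**
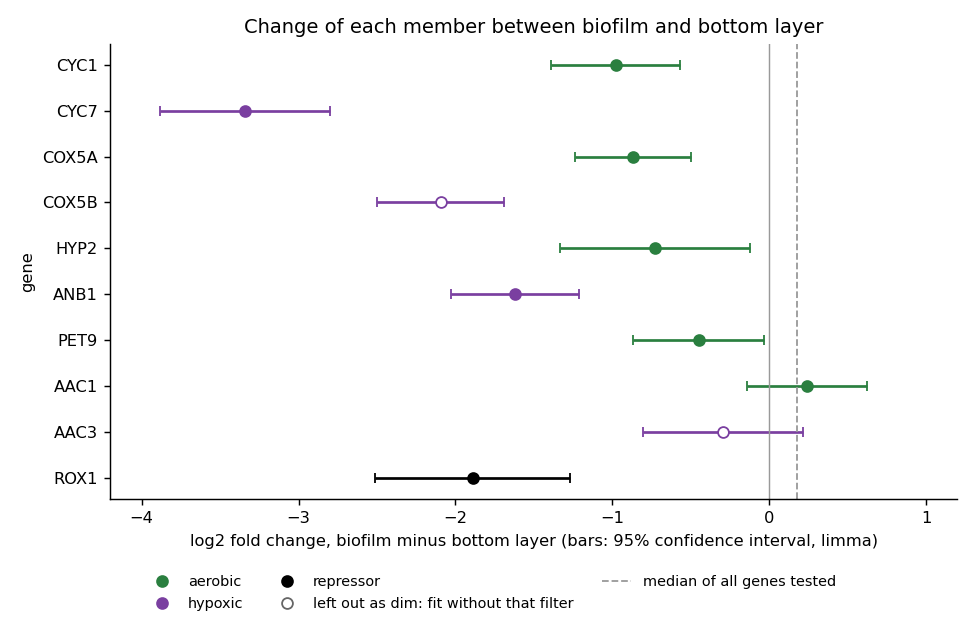
Log2 fold change of each member, biofilm minus bottom layer, with the 95% confidence interval of the limma fit. Open points are the 2 genes left out as dim, from the fit without that filter, and the open point of COX5B is no bound. CYC7, ROX1 and ANB1 lie at -3.34, -1.89 and -1.62, AAC1 lies at 0.24, and the dashed line marks the median of all genes tested, 0.17.

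The aerobic to hypoxic ratio compares partners on the same array, so a scaling factor of the whole array cancels apart from the pseudocount. Probe sets differ in affinity, so a ratio of 2 signals is not a ratio of molecules, and its change between the groups is the quantity compared. Ratios were taken as (aerobic signal + 16)/(hypoxic signal + 16). Of the 5 ratios over the members, 3 were higher on all biofilm arrays than on any bottom layer array. With a pseudocount of 64 in place of 16 this separation was lost for COX5A/COX5B and HYP2/ANB1 (exact p = 0.4 and 0.2) and kept for CYC1/CYC7. Among single genes tested, all 3 biofilm arrays lay above all 3 bottom layer arrays for 41.3% and below them for 26.7%. Such a share was not computed over all gene pairs, and PET9/AAC3 and AAC1/AAC3 share the AAC3 signal. An exact two-sided permutation test over the 20 labellings of the arrays cannot go below 0.1, and with 7 ratios computed the Benjamini-Hochberg value cannot pass the threshold either.

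CYC1/CYC7 was 21.0, 13.1 and 32.1 in the biofilm and 3.60, 3.63 and 4.98 in the bottom layer. The ratio was 5.14-fold higher in the biofilm, a change of 2.36 on the log2 scale (SE 0.40, n = 3 in each group, exact p = 0.1, adjusted 0.14). Without bottom layer replicate 3 the change was 5.72-fold.

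COX5A/COX5B was 143, 104 and 126 in the biofilm and 44.3, 67.8 and 48.5 in the bottom layer. These values did not overlap. Since COX5B was below background in the biofilm, the change is a bound: with the control level in its place the ratio was at least 1.56-fold higher in the biofilm. The measured change was 2.34-fold (log2 change 1.23, SE 0.23, n = 3 in each group, exact p = 0.1, adjusted 0.14).

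HYP2/ANB1 was 41.3, 52.9 and 48.5 in the biofilm and 20.6, 20.4 and 39.5 in the bottom layer. The groups did not overlap, but bottom layer replicate 3 lay next to the biofilm. The ratio was 1.85-fold higher in the biofilm (log2 change 0.89, SE 0.33, n = 3 in each group, exact p = 0.1, adjusted 0.14), and 2.31-fold without bottom layer replicate 3. On that array the HYP2 signal was the highest of the 6.

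The carrier ratios overlapped between the groups. PET9/AAC3 was 41.5, 46.4 and 26.7 in the biofilm and 38.9, 48.9 and 37.2 in the bottom layer, a log2 change of -0.15 (SE 0.27, n = 3 in each group, exact p = 0.8, adjusted 0.8). AAC1/AAC3 was 88.9, 104 and 69.9 against 57.8, 47.1 and 77.9, a log2 change of 0.53 (SE 0.27, n = 3 in each group, exact p = 0.2, adjusted 0.233). On bottom layer replicate 3 the AAC3 signal was below background. Without that array the log2 change was -0.23 for PET9/AAC3 and 0.73 for AAC1/AAC3, and the AAC1/AAC3 groups did not overlap. The lowest PET9/AAC3 ratio, on biofilm replicate 3, came with the highest AAC3 signal of the biofilm group.

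**Figure D3:**
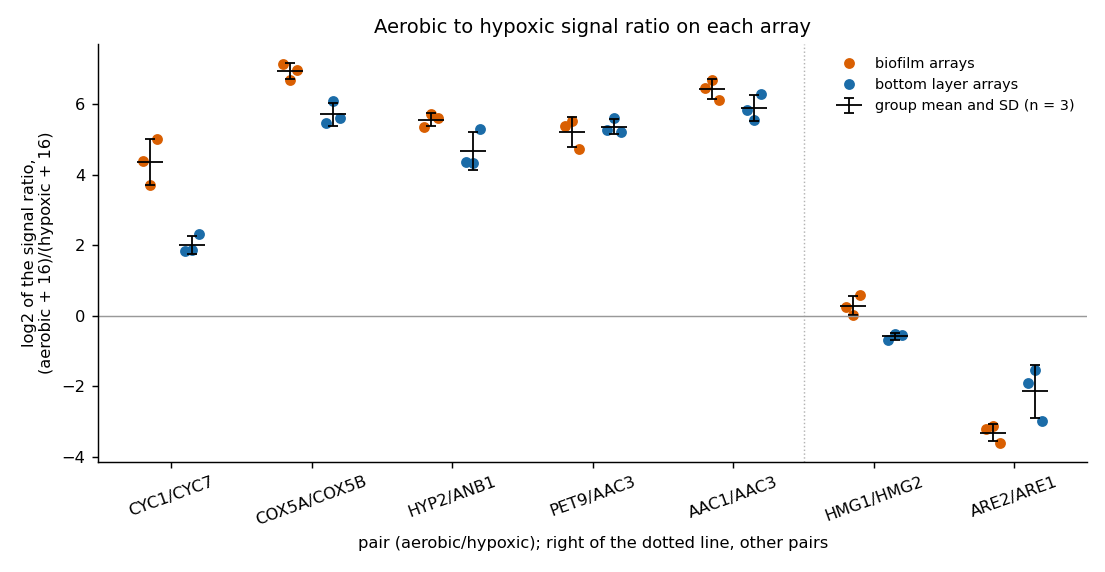
Log2 of the aerobic to hypoxic signal ratio on each array, with the group mean and SD (n = 3). Left of the dotted line are the 5 ratios of the members, right of it 2 other pairs. CYC1/CYC7 has biofilm values of 3.71 to 5.00 and bottom layer values of 1.85 to 2.32. The carrier ratios overlap, and ARE2/ARE1 runs the other way.

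Other gene pairs with an aerobic and a hypoxic form did not follow 1 pattern. HMG1 and HMG2 encode HMG-CoA reductase of sterol synthesis. HMG1/HMG2 was 1.18, 1.02 and 1.51 in the biofilm against 0.615, 0.698 and 0.687, a 1.84-fold higher ratio (n = 3 in each group, exact p = 0.1, adjusted 0.14). HMG1 was higher in the biofilm, at 4015 ± 452 against 2701 ± 576 (limma adjusted p = 0.0172), a call that was lost with array medians set equal, and HMG2 did not pass.

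ARE2 and ARE1 encode enzymes that esterify sterols. Their ratio was 0.107, 0.113 and 0.0823 in the biofilm and 0.264, 0.343 and 0.127 in the bottom layer. It was lower in the biofilm, a log2 change of -1.17 (SE 0.45, n = 3 in each group, exact p = 0.1, adjusted 0.14) and of -1.59 without bottom layer replicate 3. Both genes were lower, ARE2 at 46.7 ± 7.48 against 445 ± 212 and ARE1 at 608 ± 34.1 against 1881 ± 159 (limma adjusted p = 2.55e-05 and 6.21e-06). ARE2, like ROX1, passed the filter on dim genes through its bottom layer level alone, so its call is not independent of its difference.

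The regulators around ROX1 moved in both directions. Of 14 genes for regulators of the response to oxygen and heme other than ROX1, 10 were tested. Of these, 2 were higher in the biofilm, 4 lower and 4 did not pass, beside 38.0% higher and 24.4% lower over all genes. Their median was -0.38, beside 0.17 over all genes. IXR1, a regulator of hypoxic genes and of COX5B, was 3.38-fold lower, at 160 ± 29.2 against 578 ± 84.3, and MGA2, an activator of OLE1, 2.29-fold lower. HAP3, a DNA-binding part of the Hap2/3/4/5 complex, was 2.00-fold higher, at 437 ± 23.2 against 210 ± 12.2, and CYC8, a corepressor that works with Rox1, 1.98-fold higher (limma adjusted p = 2.18e-05, 0.000109, 0.000268 and 0.00200 in that order). CYC8, at 170 ± 44.2 against 76.7 ± 9.90, passed the filter on dim genes through its biofilm level alone, so its call is not independent of its difference.

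Of 7 heme synthesis genes tested 2 were higher and 1 lower, beside 38.0% higher and 24.4% lower over all genes. HEM1, the first enzyme of heme synthesis, was 2.70-fold lower, at 282 ± 48.9 against 805 ± 256. HEM4 and HEM12, later steps of the pathway, were 1.90-fold and 1.87-fold higher. HEM13, which needs oxygen and is known to be repressed by Rox1, did not pass, with a higher mean in the biofilm of 219 ± 76.5 against 125 ± 54.0 (limma adjusted p = 0.0626). Of 7 other hypoxic genes tested, HEM13 among them, 5 were lower and none higher (limma; 1 higher, HEM13, at an unadjusted p below 0.05), with a median of -1.44, and 4 more were left out as dim. OLE1, TIR4, ARE1 and TIR1 were lower by 5.37-fold, 5.23-fold, 3.03-fold and 2.72-fold.

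Partners of the members in respiration were mostly lower in the biofilm. Of 9 other subunits of cytochrome c oxidase tested, 8 were lower and 0 higher (limma; the same counts at an unadjusted p below 0.05), with a median of -1.17. Over all genes tested 24.4% were lower and 38.0% higher, with a median of 0.17. COX26 fell from 5963 ± 1710 to 1170 ± 164, COX9 from 4917 ± 256 to 2156 ± 114, COX13 from 4751 ± 117 to 1859 ± 348 and COX6 from 3057 ± 791 to 1273 ± 251. COX1, encoded in the mitochondrial genome, did not pass, at 2296 ± 306 against 2377 ± 341. COX2 and COX3, also mitochondrial, were left out as dim. COX3 lay higher in the biofilm, at 73.9 ± 38.1 against 20.6 ± 4.67 without overlap (limma without the filter, adjusted p = 0.00316). It was near background: 2 of its bottom layer values lay below the brightest unspiked control of their arrays. Its biofilm values were 54.0, 49.8 and 118. COX2 read 30.7 ± 12.6 against 29.9 ± 16.7. Without bottom layer replicate 3, 7 of the 9 were lower.

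Of 6 genes that act on or with cytochrome c, 4 were lower and 1 higher, with a median of -1.11. CYC3, whose product attaches heme to cytochrome c, was 2.35-fold lower, at 2656 ± 113 against 6318 ± 1025. CCP1 (cytochrome c peroxidase), CYB2 (a lactate dehydrogenase that reduces cytochrome c) and CYT1 (cytochrome c1) were lower by 3.23-fold, 2.04-fold and 2.30-fold. Of 8 other genes that aerobic cells express with the help of heme, 4 were lower and 3 higher, beside 24.4% lower and 38.0% higher over all genes, with CTT1, a catalase gene, 4.44-fold lower and ERG11, of ergosterol synthesis, 1.53-fold higher. The 3 higher calls were lost with array medians set equal.

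The genes that make hypusine and polyamines moved the other way from HYP2 and ANB1. Of 6, 5 were higher in the biofilm and SPE1 did not pass, with a median of 1.13. Over all genes tested 38.0% were higher and 24.4% lower, with a median of 0.17. DYS1 and LIA1, the enzymes that build hypusine on eIF5A from the polyamine spermidine, rose from 290 ± 29.4 to 667 ± 30.6 and from 371 ± 24.9 to 970 ± 76.1. SPE4 and SPE3, of polyamine synthesis, were 2.87-fold and 2.14-fold higher. Among 5 other carriers of nucleotides and phosphate, 3 were higher and 1 lower, beside 38.0% and 24.4% over all genes. The peroxisomal adenine nucleotide carrier gene ANT1 was 3.27-fold higher, PIC2 and GGC1 were 1.61-fold and 1.44-fold higher, and the mitochondrial phosphate carrier gene MIR1 was 1.60-fold lower. With array medians set equal 1 of these 5 was higher.

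**Figure D4:**
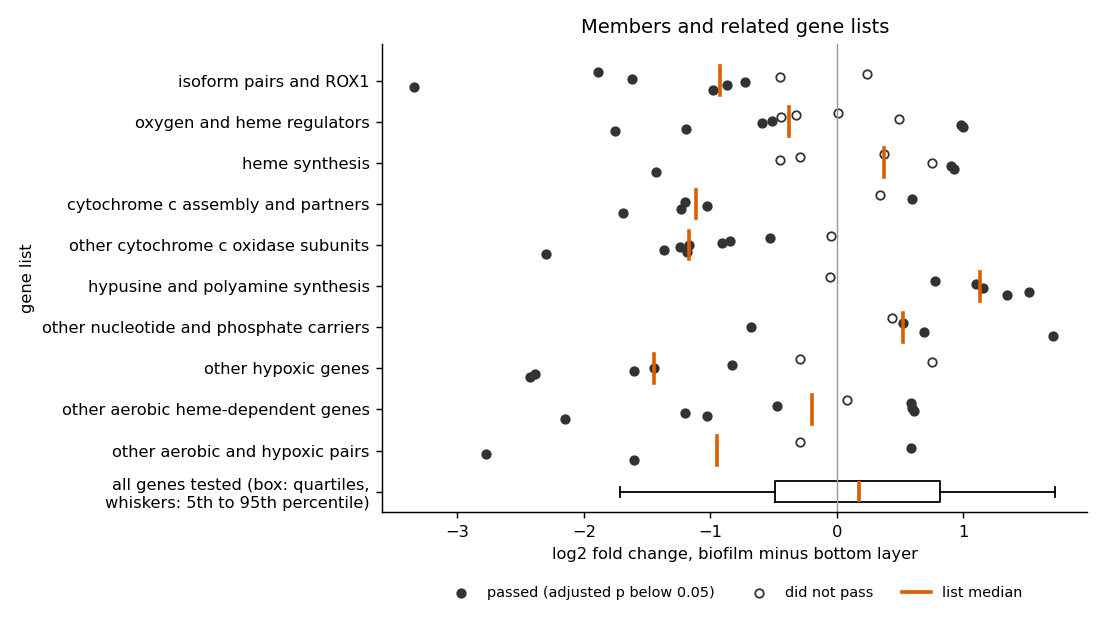
Log2 fold changes, biofilm minus bottom layer, of the tested members and of 9 lists of related genes, some of which share genes. Filled points passed at an adjusted p below 0.05 (limma), the orange line is the list median, and the box shows all genes tested. The medians run from -1.44 for other hypoxic genes to 1.13 for hypusine and polyamine synthesis.

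Genes with a pattern like that of CYC7, the member with the largest fall, were sought over the 6 arrays, each gene's log2 values being centred on its own mean. The smallest root mean square differences were 0.14 for AIM17, 0.23 for PRB1, a vacuolar protease gene, and 0.23 for YNR014W. AIM17 read 87.3 ± 15.7 on the biofilm arrays against 1039 ± 250 on those of the bottom layer, and YNR014W 131 ± 23.1 against 1593 ± 116. No member rose, so no pattern of a rise was sought.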

How the data were processed

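RNA of 3 biofilm and of 3 bottom layer cell samples was biotin-labelled and hybridised to Affymetrix arrays, per the labels' protocols. The authors deposited signal intensities for 9335 probe sets. The submitters' processing notes name MAS5; no version or setting is given in the sources used here. After trimming 2% of probe sets at either end, the mean signal was 500 on each array.

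Probe sets paired with 1 gene, 6504, were named by gene identifier through a gene table of assembly R64 (names and gene order only). Another 328 were paired with several genes and 2443 were not listed. Per gene the probe set brightest in mean log2(signal + 16) was kept, and the dimmest 25% of 5656 genes were left out. Biofilm and bottom layer were compared by limma 3.58.1 (R 4.3.3) with a variance trend (two-sided, Benjamini-Hochberg over 4242 genes, threshold 0.05). Standard errors of the log2 fold changes had a median of 0.18, and the number of arrays limits the precision. Background was the brightest of 19 unspiked control probe sets (mouse and Bacillus subtilis) on each array. For a gene under it on all 3 arrays of a group, the fold is a bound, computed from that control level. Folds on the log2(signal + 16) scale understate changes of dim genes. Ratios were tested by exact permutation.

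All 10 members were named, both other pairs, up to 4 tested genes of each list by smallest p, the strain's marker genes and the 3 genes most like CYC7. COX1 and SPE1, which did not pass, and COX2 and COX3, left out as dim, were named after their values were seen. The same holds for HAP1, HAP2, HAP4, HAP5 and TUP1. The genes next to members were named by position. The members, lists and rules were chosen with earlier results of these data known. The labels do not say that a replicate number marks a beaker, so the replicate block is an alternative. Same-numbered arrays did not deviate together (correlations of -0.01, -0.09 and 0.16 for replicates 1, 2 and 3). The fit was tested on simulated data. Other alternatives were pseudocounts 1 and 64, no filter or 50%, quantile normalization, equal array medians, no trend, array weights, the ACT1 3' to 5' ratio as covariate and each array left out in turn. Plots were made in matplotlib 3.10.9.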

Additional observations from a re-analysis of the deposited data

How the results depend on the processing

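Under the 16 alternatives the number of members called lower stayed between 5 and 7 and none was called higher (limma), and CYC1, CYC7, COX5A and ANB1 passed under each, as did ROX1 where it was tested (the 50% filter left it out). HYP2 lost its call under 7 of 16 settings and PET9 gained one under 7 of 16. PET9 had adjusted p = 0.0491 without the dimmest 50%, 0.0406 under quantile normalization, 0.00646 under median centring, 0.00313 with array weights, 0.0471 with the replicate block and 0.00528 with the ACT1 covariate, besides 0.00327 without bottom replicate 3. Over all genes 60.9% of 2650 calls were higher, with 1613 higher and 1037 lower, and median centring gave 49.0%, with 1295 higher and 1347 lower, as it moved the median log2 fold change from 0.17 to -0.04. The change of the COX5A/COX5B log2 ratio was 2.55 with pseudocount 1 and 0.18 with 64, since COX5B was below background in the biofilm. With 64 the groups overlapped for COX5A/COX5B and HYP2/ANB1 and separated for AAC1/AAC3 (exact p = 0.1). Under quantile normalization the change was 1.35 for HYP2/ANB1, -0.56 for PET9/AAC3 and 0.14 for AAC1/AAC3 (the cause was not tested). The replicate block leaves the ratio changes as they are by construction (2.36 for CYC1/CYC7), and besides the calls of HYP2 and PET9 it changed no member's call. Leaving out 1 array gave 2.04 to 2.69 for CYC1/CYC7, 1.10 to 1.41 for COX5A/COX5B, 0.73 to 1.21 for HYP2/ANB1, 0.37 to 0.73 for AAC1/AAC3 and -0.31 to 0.09 for PET9/AAC3. Counts of the related lists under quantile normalization, median centring and without bottom replicate 3 were alternatives chosen after seeing the data. Heme synthesis genes called lower, 1 in the report, numbered 2, 3 and 2 under them. Median centring left 0 of the cytochrome c partners, 0 of the other aerobic genes, 0 of the other pairs and 1 of the carriers called higher, against 1, 3, 1 and 3. No member had a second probe set or one shared with another gene, so those alternatives gave no value.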

Other observations

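The isoforms of the cytochrome c and eIF5A pairs lie near each other across pairs in the gene table of assembly R64. On chromosome X the hypoxic ANB1 is the direct neighbour of the aerobic CYC1, and on chromosome V 4 genes lie between the hypoxic CYC7 and the aerobic HYP2. These genes, chosen by position, did not share 1 direction. RAD23, a DNA repair gene, was higher in the biofilm at 734 ± 54.8 against 444 ± 85.4 signal units, and ANP1, of protein glycosylation in the Golgi, at 686 ± 21.3 against 201 ± 28.4 (mean ± SD, n = 3 in each group, limma adjusted p = 0.00375 and 1.11e-05). UTR4 was lower, at 820 ± 87.7 against 1301 ± 163 (limma adjusted p = 0.00373). UTR5 was left out as dim, at 12.4 ± 7.35 against 96.1 ± 11.5. UTR1, on the other side of CYC1 from ANB1, did not pass, at 165 ± 20.6 against 221 ± 51.5 (limma adjusted p = 0.127).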
